A study of Mus musculus with 6 samples.

Results

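The mRNAs described here fell during a block of transcription in fetal hepatocytes without Cnot3 and fell less, or not at all, in control hepatocytes. They were chosen by that difference: the log2 intensity at 12 h of actinomycin D (ActD) minus that at 0 h was at most -1 in Cnot3KO cells, and the same change in control cells lay above 0.5 of the Cnot3KO change. A change of -1 is a loss to 50% of the 0 h signal. Of 16499 genes kept by a filter on low signal, 111 met both limits, or 0.673%. With the genotypes exchanged the same limits took 1883 genes, or 11.4%, so mRNAs lost faster without Cnot3 were the smaller class by far.

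Cnot3 is a subunit of the Ccr4-Not complex, which shortens the poly(A) tails of mRNAs and so starts the decay of most of them. Loss of a subunit of the complex is known for longer mRNA half-lives, and an mRNA that declines sooner without it runs the other way. ActD stops RNA synthesis, so in its presence the level of a mature mRNA follows its decay, with the completion of transcripts already begun added to it.

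Hepatocytes were taken from E16.5 mouse embryos and differentiated in culture with oncostatin M and dexamethasone. Cnot3KO cells carried floxed Cnot3 alleles and Cre recombinase driven by the albumin promoter. Per the study, the main albumin-expressing cells of the fetal liver are hepatoblasts, which become hepatocytes or cholangiocytes. The study also saw fetal liver cells without recombination, blood-forming cells among them. The labels call the control cells wild type, while the methods list as controls mice with floxed alleles and no Cre, or with Cre and at least 1 intact allele. Both genotypes were sampled after 0, 6 and 12 h of ActD, with 1 array for each genotype and time, so no value below has a replicate or a test. Per the study, Cnot3 was lost incompletely in the fetal liver and efficiently by the end of culture. The brighter of the 2 Cnot3 probe sets read 296, 214 and 158 in control and 174, 174 and 146 in Cnot3KO cells at 0, 6 and 12 h, which is 1.70-fold lower at 0 h. The dimmer probe set, at 160 and 155 at 0 h, did not separate the genotypes. All 10 hepatocyte markers measured were above the array median on every array, and their summed intensity lay between 188411 and 205652.

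Intensities were normalised to the same distribution on every array, so a change is relative to the other mRNAs and a loss shared by all of them is not seen. The median change over all genes at 12 h was 0.15 on the log2 scale in control and 0.08 in Cnot3KO cells. Among the genes with 2 bright probe sets, the standard deviation between probe sets of a gene was 0.25 for the Cnot3KO change, 0.51 for the control change and 0.42 for the difference of the changes (n = 4117 genes). This is a spread between probes on the same arrays, and it holds no spread between cultures.

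The selected mRNAs fell by 1.29 on the log2 scale in Cnot3KO cells (median, range -2.88 to -1.01) against 0.30 in control cells (median -0.30, range -1.06 to 1.03). The median share of signal left at 12 h was 40.9% in Cnot3KO and 81.4% in control cells. In control cells 35 of the 111, or 31.5%, ended above their 0 h signal, against 58.9% of all genes. Another 47 lay between no change and -0.5, and 29 were at -0.5 or lower. The difference, control change minus Cnot3KO change, had a median of 1.11 and ran from 0.52 to 2.42. It was over 2 times the standard deviation between probe sets in 84 of the 111. These values chose the genes and are given as a description.

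**Figure D1:**
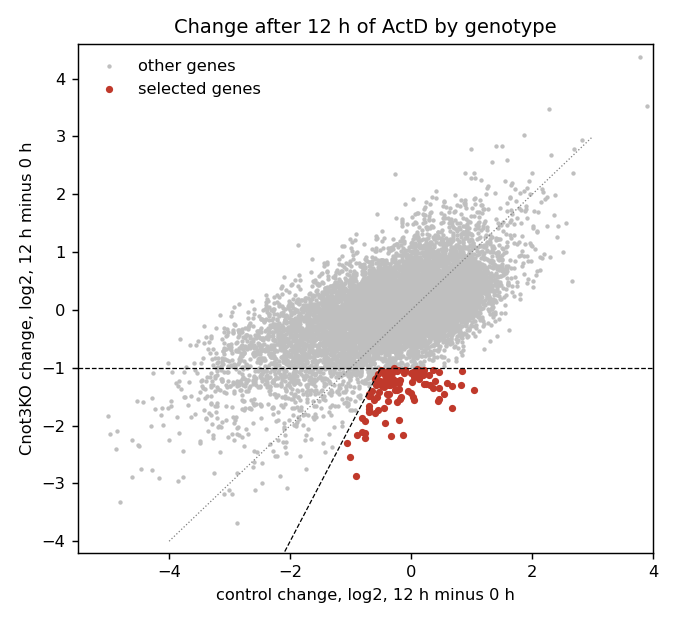
Log2 change after 12 h of ActD in control cells (x axis) and in Cnot3KO cells (y axis), 1 point per gene, 16499 genes. The dashed lines are the 2 limits of the rule and the dotted line marks equal change. The 111 selected genes (red) fill the corner below -1 on the y axis, and the 1883 genes of the exchanged rule lie left of the dotted line.

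The 6 h arrays entered the choice of each probe set and the filter on low signal, but not the limits on the changes. The Cnot3KO signal was already below its 0 h value at 6 h in 109 of the 111, with a median change of -0.53, and 108 fell at both steps. In control cells the median change at 6 h was 0.03, and 62 of the 111, or 55.9%, stood above their 0 h signal, as did 61.5% of all genes. The 6 h difference of the changes was above 0 in 106 of the 111, against 56.3% of all genes, and its median was 0.62 against 0.06. This contrast shares the 0 h arrays with the rule. A comparison between the 6 h arrays does not: at 6 h the Cnot3KO signal of 75 of the 111 stood over 1.5-fold below the control signal, as did that of 7.13% of all genes.

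The loss in Cnot3KO cells was larger in the later 6 h than in the earlier 6 h for 79 of the 111, or 71.2% (medians -0.77 and -0.53), against 50.2% of all genes. The other 612 mRNAs with a Cnot3KO change of at most -1, which control cells lost as well, ran differently. For 121 of those 612, or 19.8%, the later loss was the larger, and their medians were -1.04 for the earlier and -0.35 for the later 6 h. Most of the selected mRNAs thus lost more Cnot3KO signal late than early, and most of the other lost mRNAs the reverse. The control medians had the same order. They were 0.03 for the earlier and -0.21 for the later 6 h in the selected mRNAs, and -1.28 and -0.72 in the other 612.

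**Figure D2:**
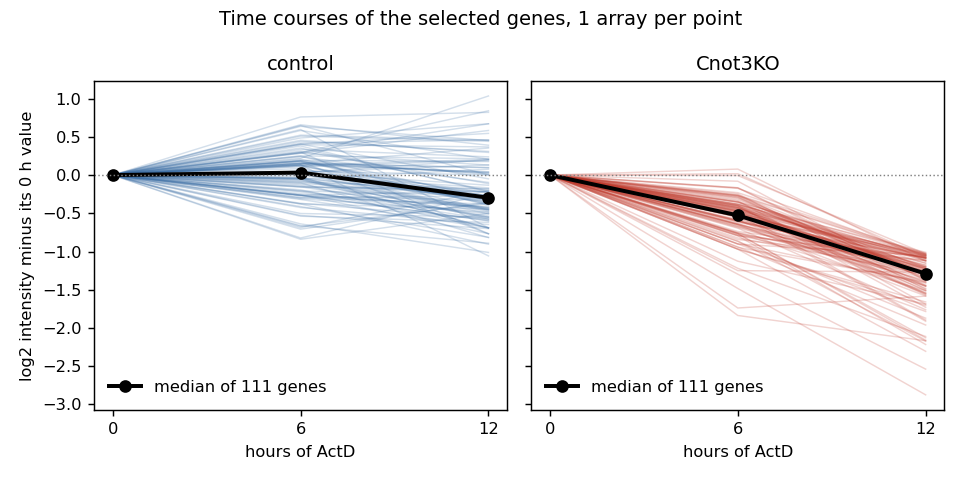
Log2 intensity minus its 0 h value (y axis) against hours of ActD (x axis) for the 111 selected genes in control (left) and Cnot3KO cells (right), 1 line per gene, with the median in black. The control median is at 0.03 and -0.30 at 6 and 12 h, and the Cnot3KO median at -0.53 and -1.29.

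Before ActD the selected mRNAs were not at one level. At 0 h 81 of the 111 lay within 1.5-fold of control, 20 were over 1.5-fold lower in Cnot3KO cells, against 2.92% of all genes, and 10 were over 1.5-fold higher, against 6.71% of all genes. At 12 h 96 were over 1.5-fold lower, against 13.8% of all genes, and 2 were higher. The median Cnot3KO minus control difference went from -0.20 at 0 h to -0.74 at 6 h and -1.25 at 12 h. Among the 81 that started within 1.5-fold, 57 were over 1.5-fold lower at 6 h, and among all 14910 genes that started there 920 were, or 6.17%.

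Long genes made up most of the class. In the RefSeq table of GRCm38.p6 the median locus of 110 selected genes with a known length was 196 kb, against 20.7 kb for all genes, and 79.1% exceeded 100 kb, against 12.2%. Loci over 200 kb made up 50% of the selected genes and 4.68% of all genes. The largest were Ptprd, a receptor tyrosine phosphatase of synapses, with 2271 kb, Tenm3, a teneurin adhesion receptor, with 1297 kb, and Robo1, the Slit receptor, with 1020.0 kb. The other 612 mRNAs lost in Cnot3KO cells also came from long loci, with a median of 131 kb and 64.8% over 100 kb. The 1883 mRNAs of the exchanged rule had a median of 39.9 kb, and 12.9% exceeded 100 kb. Length was not used by the rule, but the genes it is compared over were chosen on these arrays, so these figures are counts without a test.

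Over all genes above the array median in Cnot3KO cells at 0 h, the median Cnot3KO change at 12 h fell with locus length. The control median fell up to 200 kb and was less negative again beyond, so the order of the genotypes turned. For loci of 20 to 50 kb the medians were -0.23 in control and 0.02 in Cnot3KO cells, and 8 of 3219 genes were selected. For 50 to 100 kb they were -0.60 and -0.33, with 9 of 1661 selected. For 100 to 200 kb they were close, at -0.74 and -0.66, with 31 of 937 selected. For 200 to 500 kb the Cnot3KO median was the lower, at -0.89 against -0.70, and 40 of 377 were selected. Over 500 kb they were -1.12 in Cnot3KO and -0.37 in control cells, with 12 of 73 selected. Up to 20 kb both medians were above 0 and 5 genes were selected in all. The interquartile ranges of the genotypes overlap in every length class. Without the limit on 0 h signal the course over length differed. The Cnot3KO medians were then -0.49 for 100 to 200 kb, -0.44 for 200 to 500 kb and -0.07 over 500 kb. The control medians were -0.34, -0.06 and 0.10. The Cnot3KO median was thus the lower from 100 kb on, but did not keep falling beyond 200 kb. The shares selected were 2.60%, 7.11% and 7.45%.

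**Figure D3:**
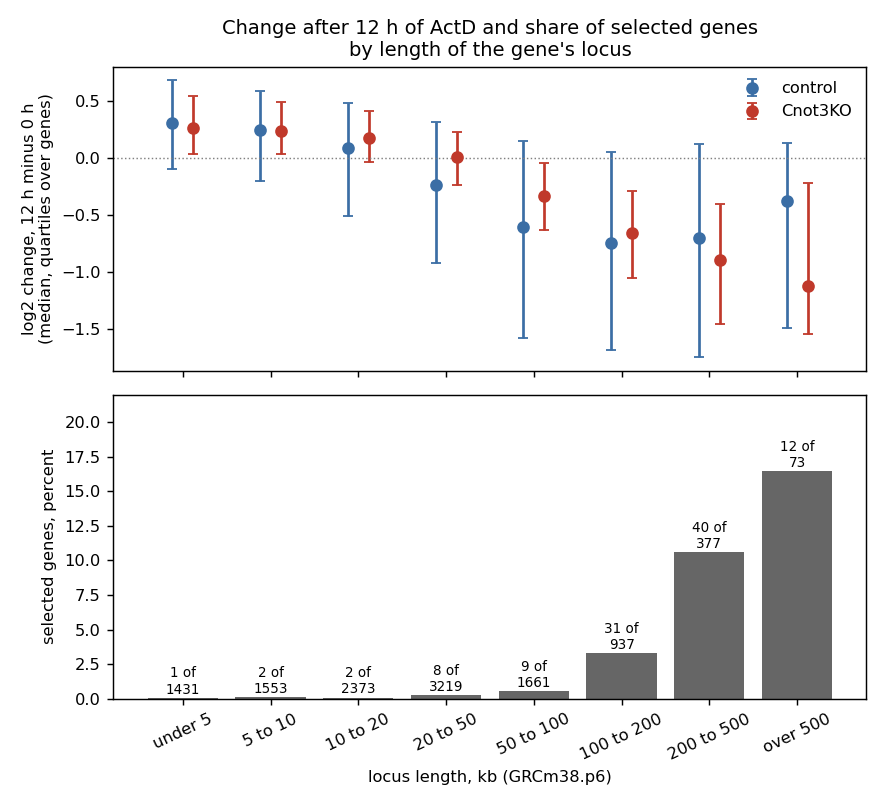
Top, median log2 change after 12 h of ActD (points) with quartiles over genes (bars) in control and Cnot3KO cells, by locus length in kb, for genes above the array median in Cnot3KO cells at 0 h. Bottom, percent of those genes that were selected, with counts; the share rises from 1 of 1431 under 5 kb to 12 of 73 over 500 kb.

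Probe sets that did not represent a gene gave a partly different picture of length. Only those above the array median in Cnot3KO cells at 0 h were counted, as for the genes above. Over 500 kb, 77 such probe sets of 34 genes had medians of -1.36 in Cnot3KO and -1.13 in control cells, and 19.5% of them met the rule. For 200 to 500 kb the medians were -0.89 and -0.85, and 7.52% met the rule. For 50 to 100 kb 0.399% did. These probe sets include further ones of the selected genes, which made up 9 of the 15 that met the rule over 500 kb. Without them the share was 0.334% for 50 to 100 kb, 1.74% for 100 to 200 kb, 3.53% for 200 to 500 kb and 9.84% over 500 kb (6 of 61). The share thus rose with length without the selected genes as well, while the gap between the genotype medians over 500 kb was smaller than in the probe sets that represent the genes. Across the selected genes the rank correlation of locus length with the Cnot3KO change was -0.35 and with the control change -0.04 (Spearman, n = 110 genes on the same 6 arrays).

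**Figure D4:**
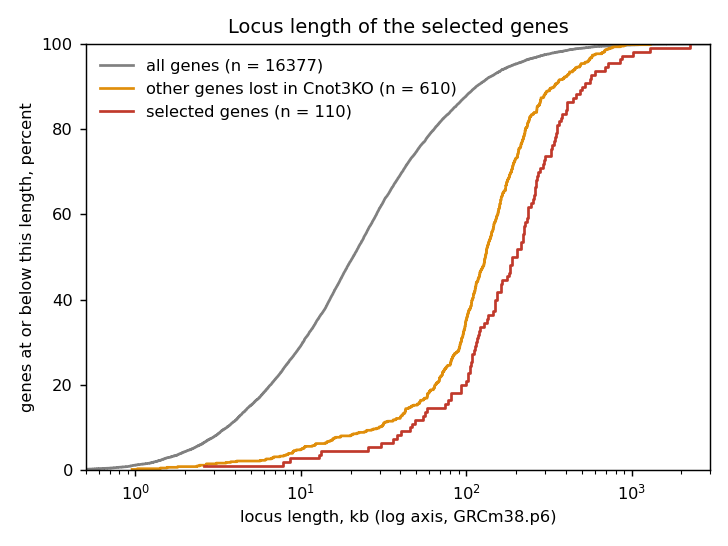
Percent of genes at or below a locus length (y axis) against locus length in kb on a log axis (x axis), for all genes, for the other genes with a Cnot3KO change of at most -1 and for the selected genes. The selected genes lie furthest to the right, with a median of 196 kb against 131 kb and 20.7 kb.

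Short loci were few among the selected genes. Those under 20 kb were 5, namely Ctla2b, Tubb1, Nts, Cxcl12 and Peg10, named after their values were seen. Nts, the neuropeptide neurotensin, read 65.8, 80.7 and 105 in control and 85.5, 67.8 and 26.5 in Cnot3KO cells at 0, 6 and 12 h. Peg10, an imprinted gene derived from a retrotransposon, read 46.8, 79.3 and 82.7 in control and 164, 119 and 66.6 in Cnot3KO cells. Both rose in signal in control cells while the Cnot3KO signal fell, and Peg10 started 1.81 higher on the log2 scale in Cnot3KO cells and ended below control.

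Promoters of the selected genes did not stand apart from those of the other lost mRNAs. Over the 87 selected genes with an entry in the RefSeq promoter table of GRCm38.p6, which spans 250 bases before to 50 after each start, the median GC content was 64.0%, against 63.8% for the other lost mRNAs, 62.8% for the exchanged rule and 59.3% for all genes. The dinucleotide CG, which reads the same on both strands, occurred a median of 23 times, against 24, 24 and 18 times. Of all 32851 listed promoters, 94.6% hold it at least 1 time. The promoters below, of the named genes with 1 entry those with most and fewest CG, are shown to give the width of the range, with each CG in capitals. Reln encodes the secreted glycoprotein reelin, and its promoter (chr5:22344656-22344955, minus strand) holds 47 CG. Acaca encodes acetyl-CoA carboxylase, the first committed enzyme of fatty acid synthesis, and its listed promoter (chr11:84195188-84195487, plus strand) holds 1.
Reln: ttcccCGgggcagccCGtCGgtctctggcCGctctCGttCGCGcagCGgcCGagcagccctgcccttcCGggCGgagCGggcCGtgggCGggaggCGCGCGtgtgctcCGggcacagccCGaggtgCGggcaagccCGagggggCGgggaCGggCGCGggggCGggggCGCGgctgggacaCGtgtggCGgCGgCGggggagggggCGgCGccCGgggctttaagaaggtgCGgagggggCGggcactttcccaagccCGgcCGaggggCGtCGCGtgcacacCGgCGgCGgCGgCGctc
Acaca: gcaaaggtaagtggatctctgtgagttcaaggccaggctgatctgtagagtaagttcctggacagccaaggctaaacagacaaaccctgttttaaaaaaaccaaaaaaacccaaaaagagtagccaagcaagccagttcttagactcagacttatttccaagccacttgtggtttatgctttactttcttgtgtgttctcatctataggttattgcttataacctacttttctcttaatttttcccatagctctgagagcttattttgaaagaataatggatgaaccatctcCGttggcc

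The other probe sets of the same genes read the same RNA on the arrays that chose the genes, so they check probe error only. The genes they are compared with had a representing probe set that did not meet the rule. Of 173 such probe sets for 80 of the selected genes, 35 met the rule on their own, or 20.2%, against 0.439% of 13907 probe sets of all other genes. The difference of the changes was above 0 in 80.3% of the 173, against 55.5%. At least 1 further probe set met the rule in 23 of the selected genes. In 54 genes every further probe set had the same sign of difference, and in 7 none had. The other 31 genes had no further probe set past the filter, Nts, Peg10, Reln, Slc2a2, Cps1 and Mrc1 among them.

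The genes whose second probe set met the rule by the widest margin were Msi2, Cadm1, Ptprg, Hipk2 and Lpp. Msi2, an RNA-binding protein of the Musashi family, read 730, 747 and 665 in control and 473, 278 and 106 in Cnot3KO cells at 0, 6 and 12 h. Its changes were -0.13 and -2.16, and 2 of 6 further probe sets met the rule with differences of 1.76 and 2.67. Control cells kept the Msi2 signal at every time, while Cnot3KO cells, which began lower, were 6.29-fold below control at 12 h.

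Lpp, a LIM domain protein of focal adhesions, read 3972, 4406 and 4042 in control and 2504, 1808 and 881 in Cnot3KO cells. Of its 7 further probe sets, 5 met the rule with differences between 1.64 and 2.19. The remaining Lpp probe sets went the other way: one changed by -3.08 in control and -2.26 in Cnot3KO cells, and the other by -1.49 and -1.07. Probe sets of the same gene thus gave opposite differences between the genotypes. Msi2 has a probe set of this kind too, which fell by about the same amount in both (-1.42 in control, -1.39 in Cnot3KO cells).

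Hipk2, a nuclear kinase of the stress response, was among the brightest selected mRNAs. It read 4569, 3856 and 3395 in control and 2805, 1463 and 720 in Cnot3KO cells, a change of -0.43 against -1.96. All 6 further probe sets had the same sign of difference and 3 met the rule. The Cnot3KO signal of Hipk2 was below the control signal at every time, 0 h included, where it was lower by 0.70 on the log2 scale.

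**Figure D5:**
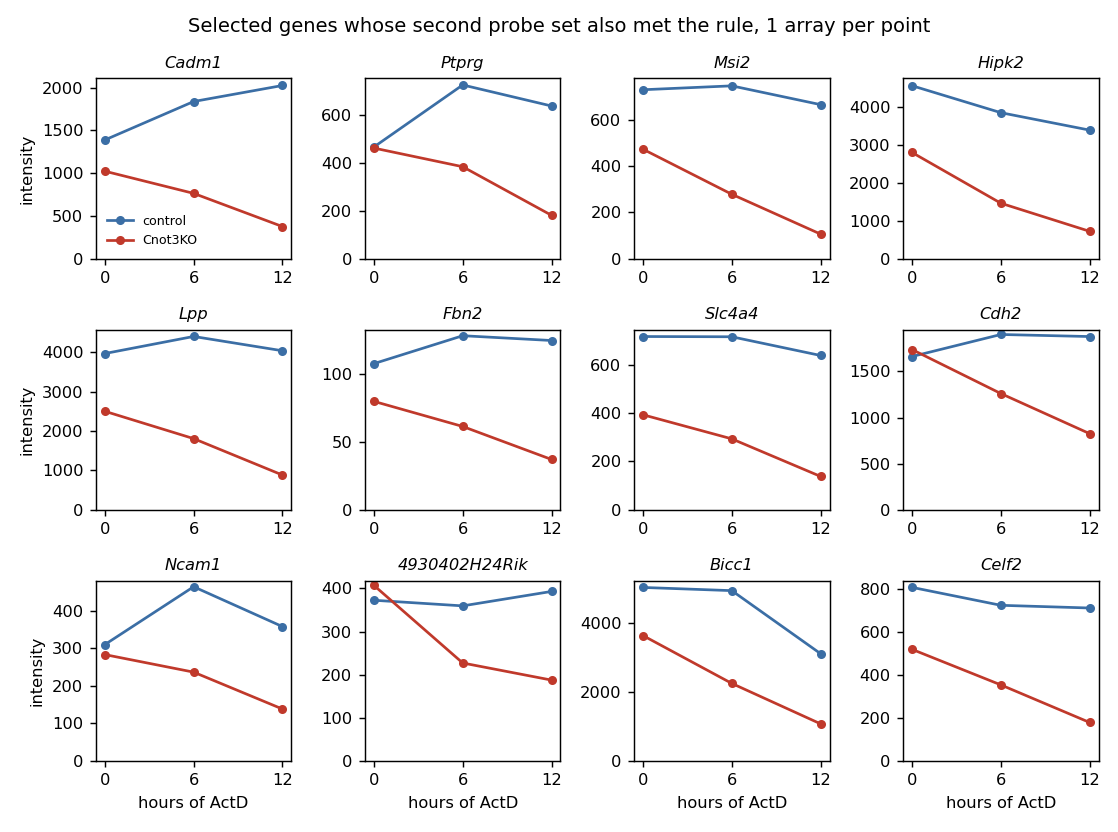
Intensity (y axis, linear, from 0) against hours of ActD (x axis) for 12 selected genes with a second probe set that met the rule, 1 array per point. Control values (blue) end highest above their start in Cadm1 and Ptprg and decline most in Bicc1 and Hipk2, and every Cnot3KO course (red) falls at both steps.

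By known role, 81 of the 111 were placed in 8 groups with their values in view, so the groups carry no test, and 30 were left out. Adhesion and guidance receptors and matrix proteins were the largest, with 19 genes. Their median changes were -1.29 in Cnot3KO and 0.19 in control cells, and all 19 were over 1.5-fold lower in Cnot3KO cells at 12 h. In control cells 11 of the 19 ended above their 0 h signal, as did 58.9% of all genes. Tenm3 read 1188, 914 and 635 in control and 1113, 398 and 152 in Cnot3KO cells, the steepest Cnot3KO loss of the class (-2.88 against -0.90). Robo1 behaved alike, with 766, 492 and 380 against 673, 274 and 116. Both mRNAs began within 1.5-fold of control and fell in both genotypes. The single further Tenm3 probe set had changes of -2.20 and -3.31, and the 2 of Robo1 were dim and of opposite sign.

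Several adhesion genes instead gained signal in control cells. Cadm1, an immunoglobulin family adhesion molecule, read 1389, 1839 and 2027 in control and 1024, 764 and 375 in Cnot3KO cells. Ptprg, a receptor tyrosine phosphatase, read 467, 727 and 639 against 463, 385 and 181, and all 3 of its further probe sets met the rule. Cdh2, the N-cadherin of hepatocyte junctions, read 1663, 1902 and 1879 against 1738, 1261 and 825. Ptprg and Cdh2 began at like levels in both genotypes and parted under ActD, while Cadm1 began 0.44 lower on the log2 scale in Cnot3KO cells. Ncam1, a neural cell adhesion molecule, and Fbn2, a fibrillin of microfibrils, followed the same course at lower signal, with changes of 0.21 in control cells for both and of -1.04 and -1.11 in Cnot3KO cells. Antxr1, a collagen-binding receptor, changed by 0.44 and -1.58, and Ccbe1, a matrix protein of lymphatic growth, by 0.39 and -1.23. Reln read 219, 307 and 349 in control and 274, 158 and 110 in Cnot3KO cells.

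Genes of this kind are also used by cells other than hepatocytes, and the albumin promoter is not expected to drive Cre in stellate cells or fibroblasts. Of 10 stellate cell and fibroblast markers 9 were measured. They summed to 17712, 18331 and 19161 in control and 13980, 11490 and 8871 in Cnot3KO cells at 0, 6 and 12 h. The difference of the changes was above 0 in all 9, against 52.9% of all genes. A Cnot3KO change of at most -1 was reached by 2, Reln and Pdgfrb, and Pdgfrb fell in both genotypes (-2.88 in control, -3.69 in Cnot3KO cells). Dcn, Lum and Des changed by -0.06, 0.05 and -0.15 in Cnot3KO cells, and Acta2, Col1a2 and Col3a1 by -0.36, -0.83 and -0.68. Col1a1, a collagen chain, changed by 0.30 in control and -0.71 in Cnot3KO cells. Reln is the only marker of that list that was selected. The 5 megakaryocyte markers summed to 4354, 6387 and 7243 in control and 3243, 3764 and 3321 in Cnot3KO cells. The summed signal of the 10 endothelial markers went from 1686 to 762 in control and from 1175 to 532 in Cnot3KO cells, although Clec4g changed by 0.38 and 0.27. The 12 macrophage markers held, at 19990 to 24773 in control and 16271 to 18598 in Cnot3KO cells, and 1 of them, Mrc1, was selected. The 6 cholangiocyte markers measured summed to 34110 to 41341 in Cnot3KO and 19421 to 22716 in control cells, while Sox9 at 0 h (152 against 184) and Epcam at 12 h (1534 against 1686) were lower in Cnot3KO cells. The 3 erythroid markers measured summed to at most 252, and the 7 leukocyte markers to between 38559 and 45367. The part of these cells in the losses was not tested. In these bulk samples fewer cells of a type and less RNA per cell cannot be told apart.

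Metabolic enzymes supplied 12 selected genes, with median changes of -1.19 in Cnot3KO and -0.28 in control cells. Cps1, the mitochondrial carbamoyl phosphate synthetase that opens the urea cycle, read 4155, 2609 and 3215 in control and 1471, 973 and 651 in Cnot3KO cells. Gpt2, a mitochondrial alanine aminotransferase, was the brightest selected mRNA, with 8901, 8260 and 7344 against 7165, 5492 and 3556. The Cps1 level was already far lower in Cnot3KO cells at 0 h, and its 6 h difference of the changes was -0.07. Its 12 h difference of 0.81 arose after 6 h, when Cps1 changed by 0.30 in control and -0.58 in Cnot3KO cells. Gpt2 lay just inside the limit, at -1.01, and 1 of its 3 further probe sets met the rule.

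Dpyd, the first enzyme of pyrimidine breakdown, had the largest difference of the class. It read 275, 320 and 563 in control and 133, 126 and 50.9 in Cnot3KO cells, a gain of 1.03 against a loss of 1.38 on the log2 scale. Most of that difference arose after 6 h, when it was 0.30. Of lipid and sterol genes, 2 of 79 measured were selected, or 2.53%, against 0.673% of all genes. They were Elovl6, a fatty acid elongase, which changed by -0.18 in control and by -1.20 in Cnot3KO cells, and Acaca, with -0.32 and -1.28. Of amino acid, urea and glucose genes, 3 of 71 were selected, or 4.23%, the third being the glucose transporter Slc2a2. Both shares rest on few genes. The median Cnot3KO change over all measured genes was -0.20 for the lipid list and -0.12 for the other.

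Transporters and channels gave 10 selected genes with median changes of -1.28 and -0.22. Slc2a2, which carries glucose into and out of hepatocytes, read 5265, 4557 and 4374 in control and 1860, 1311 and 780 in Cnot3KO cells. Slc4a4, a sodium bicarbonate cotransporter, read 718, 717 and 639 against 393, 294 and 138, and 2 of its 4 further probe sets met the rule. Slc38a10, an amino acid transporter, read 2778, 3084 and 3550 against 2449, 1672 and 1189. Slc2a2 and Slc4a4 began over 1.5-fold lower in Cnot3KO cells and Slc38a10 did not. Abcc4, an exporter of organic anions, began higher in Cnot3KO cells, with 1288, 968 and 733 against 2132, 915 and 493, and crossed below control by 6 h.

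Only 10 selected mRNAs were over 1.5-fold higher in Cnot3KO cells at 0 h. Sytl2, a vesicle docking protein, read 37.2, 21.0 and 31.5 in control and 298, 89.3 and 99.5 in Cnot3KO cells, and remained higher at every time. Ano1, a calcium-activated chloride channel, read 524, 710 and 649 against 1750, 1290 and 712. Esrp1, an epithelial splicing regulator, read 47.9, 37.1 and 32.1 against 131, 90.9 and 57.9. For these mRNAs the faster loss brought the Cnot3KO level toward the control level. The control signal of Esrp1 and Sytl2 lay below the array median throughout, so a small change there is poorly measured.

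RNA-binding and translation proteins gave 9 selected genes, with median changes of -1.29 in Cnot3KO and -0.27 in control cells. Bicc1, an RNA-binding protein whose fly counterpart recruits the Ccr4-Not complex, is the selected gene among those the study followed. It read 5033, 4940 and 3108 in control and 3636, 2246 and 1072 in Cnot3KO cells, with changes of -0.70 and -1.76. The Cnot3KO signal was thus below control at every time, while the study found more Bicc1 mRNA in postnatal livers without Cnot3. Both further Bicc1 probe sets had the same sign of difference, 0.75 and 1.27, and the second met the rule. Celf2, a regulator of splicing and mRNA decay, read 806, 723 and 711 against 518, 353 and 178. Rbms1, a single-strand binding protein, read 2665, 2744 and 2210 against 2596, 1667 and 1082, but its further probe set had the opposite sign. Bicc1 and Rbms1 held their control signal to 6 h, while both Cnot3KO signals had dropped by then.

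Of the G1/S and DNA replication list 2 of 60 were selected, or 3.33%, against 0.673% of all genes. Pola1, the catalytic subunit of DNA polymerase alpha, read 276, 378 and 339 in control and 266, 281 and 122 in Cnot3KO cells. Cdk6, a kinase of G1 progression, read 2067, 1997 and 1280 against 1592, 1011 and 584. The Pola1 signal had not fallen in Cnot3KO cells at 6 h, while that of Cdk6 had. Kat2b, a histone acetyltransferase with changes of -0.21 and -1.26, was the 1 selected gene of 109 chromatin regulators, or 0.917%. Of the 109, 46 met the exchanged rule, or 42.2%, against 11.4% of all genes. None of 69 G2/M and cytokinesis genes was selected and 22 met the exchanged rule, or 31.9%.

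The other lists held none as well. No gene was selected of 67 immediate early and AU-rich mRNAs, 90 plasma protein genes, 69 detoxification genes, 49 liver transcription factors, 97 growth factor signalling genes, 70 Cnot complex and decay factors, 52 interferon genes, 41 stress genes, 72 oxidative phosphorylation genes or 22 clock genes. At 0.673% of all genes a list of this size would be likely to hold none or 1, so these zeros say little. The exchanged rule took 20 of the 67 AU-rich and immediate early mRNAs and 19 of the 49 liver transcription factors. These are 29.9% and 38.8%, against 11.4% of all genes. Of 75 splicing and 3′ processing genes, Celf2 and Esrp1 were selected. Among families named by symbol, 4 of 329 Slc, 2 of 205 Tmem and 3 of 1367 RIKEN or numbered genes were selected, and none of 314 Zfp, 49 ribosomal protein or 38 collagen genes was.

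Cytoskeletal proteins and small GTPase regulators gave 13 selected genes with median changes of -1.39 and -0.36, and 5 of them had a second probe set that met the rule, Lpp among them. Receptors and secreted factors gave 8, with medians of -1.52 and -0.36. Ghr, the growth hormone receptor, fell from 1708 to 1051 in control and from 1450 to 444 in Cnot3KO cells. Neither of its 2 further Ghr probe sets met the rule. One changed by 1.31 in control and -0.24 in Cnot3KO cells, and the other, of opposite sign, by -0.52 and -0.15. Mrc1, the mannose receptor of macrophages and sinusoidal endothelium, read 794, 901 and 656 against 385, 320 and 165. Lrp8, a receptor for reelin, read 427, 562 and 551 against 379, 243 and 148. Ghr and Lrp8 began near control, while Mrc1 was over 1.5-fold lower from the start.

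A few leading genes need their own limits beside them. Atrnl1, a transmembrane protein of the attractin family, changed by 0.46 in control and -1.54 in Cnot3KO cells and began 0.80 lower on the log2 scale. 9130016M20Rik, with no locus length in the table, read 1057, 656 and 918 in control and 631, 451 and 169 in Cnot3KO cells, so its 6 h difference of the changes was -0.20. 4930402H24Rik changed by 0.08 and -1.12, and 1 of its 4 further probe sets met the rule. Another went the other way, with -1.84 in control and -1.07 in Cnot3KO cells.

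The limits of the rule cut through a continuum. Just inside the Cnot3KO limit were Gpt2 (-1.01), Rhbdd1 (-1.02) and Prkar2b (-1.03), and just outside it Unc13b, Elmo1 and Itga6 (each -0.99). Just inside the control limit were Plcb4, Atp11a and Prkar2b, with control changes of -0.60, -0.55 and -0.51 for Cnot3KO changes of -1.20, -1.11 and -1.03. Just outside it were Myo18a, Ank and Pdss2, with -0.63, -0.69 and -0.59 for -1.24, -1.32 and -1.08. Of the 111, 107 were above the 20th percentile on all 6 arrays, so the filter, which asked for 1 array, let 4 in on part of the arrays. Above the median were 106 in Cnot3KO cells at 0 h and 83 on all 6 arrays.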

How the data were processed

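Total RNA of each sample was hybridised to an Affymetrix mouse array. Per the labels and methods, the authors summarised probe sets by RMA (software version: not given in the sources used here). As deposited, intensities are on a linear scale, and log2 was taken here. Of 45037 probe sets, 34945 named a single gene, 932 named several and 9160 were unnamed. Each gene was represented by its single-symbol probe set with the highest mean (18193 genes), and was kept where 1 or more arrays exceeded their own 20th percentile, which the authors used as well. RefSeq (GRCm38.p6) held 99.3% of the kept genes and gave locus lengths and promoters. The members, lists and role groups were chosen with earlier results of these data known. No test was run, because the genotype difference chose the genes and each condition had 1 array. Named genes were the 12 with the largest difference among bright genes without a contradicting probe set, the 12 with the best second probe set, the 6 brightest, up to 3 per list, those at the limits, Cnot3 and genes followed by the study. The selection was run on simulated data with planted changes, which checks the code and not the genes selected. Python 3.11.15, pandas 2.3.3, numpy 2.4.6, scipy 1.17.1 and matplotlib 3.10.9 were used. Alternatives changed the filter, the probe set, the scaling, the limits and the times.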

Additional observations from a re-analysis of the deposited data

Results flagged for a closer look

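In control cells 32 of the 111 selected mRNAs stood above their 0 h signal at both 6 and 12 h, while all 32 stood below it at both times in Cnot3KO cells. Over all genes 7.55% showed this pattern. The rule fixed the Cnot3KO fall at 12 h for all 111, and 109 had fallen at 6 h, so the 7.55% is no like comparison. A control signal above its 0 h value at 12 h was found in 31.5% of the 111 and in 58.9% of all genes. In the 32 the genotypes moved in opposite directions from 0 h at both times, and the difference was not tested. Groups of 1 array allow no check for outlying samples.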

How the results depend on the processing

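The main choice gave 111 genes lost faster in Cnot3KO cells, 10 of them over 1.5-fold higher at 0 h, and median changes of -1.29 and -0.30. Averaging all probe sets of a gene left 53 genes, of which 45 were among the 111, and gave 1228 genes for the exchanged rule against 1883. A Cnot3KO limit of -0.75 gave 214 genes (16 higher at 0 h, median Cnot3KO change -1.03) and one of -1.5 gave 30 (4 higher, median -1.75) and 1078 for the exchanged rule. Asking for a control change above 0.25 of the Cnot3KO change gave 58 genes (6 higher), 1141 for the exchanged rule, and turned the median control change to 0.041, and 0.75 gave 177 (19 higher). The steps from 0 to 6 h and from 6 to 12 h, with a limit of -0.5, gave 218 genes (22 higher, median -0.66) and 241 genes (16 higher, median -0.65), of which 54 and 69 were among the 111. Keeping only genes above the median of all 6 arrays, chosen after seeing the data, left 4 of the 10 higher at 0 h. No filter, a 50th percentile filter, a floor, unshared probe sets and centring, on Gapdh or on ribosomal protein genes, gave between 99 and 160 genes. The brightest Gapdh probe set also names copies of the gene, and centring on it moved the median control change of all genes from 0.15 to 0.34, while the ribosomal centring moved it to -0.05. The share of selected genes over 100 kb, added after seeing the data, ran from 52.9% to 86.2% over all settings. With 1 array for each genotype and time, no setting can be checked against the spread between cultures.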
